A study of Danio rerio with 6 samples.

Results

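Ionocytes are the salt-transporting cells of the zebrafish skin, and 10 genes that specify them or carry out their transport were measured in pdcd7 mutant larvae and their wild-type siblings. The genes were taken by symbol (foxi3a, foxi3b, atp6v1aa, ca2, ca15a, slc9a3.2, rhcgb, slc12a10.2, slc4a4b and trpv6), and all 10 were found among the 32520 genes of the count tables. In the annotation atp6v1aa, rhcgb and slc4a4b carry their symbol without the paralogue letter, and the gene on the chromosome that RefSeq names for the member was used. The mutant group held 3 libraries of larvae carrying the pdcd7/cx20 mutation, allele pd1215, and was set against 3 libraries of wild-type siblings. All larvae were whole and 5 days past fertilisation, and the labels give batch 1 for every library. The labels speak of 40 larvae and 3 replicates without saying whether 40 larvae went into each one, and do not say that replicates came from separate clutches, so the p-values measure only the spread between these libraries, which may be technical.

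The skin of a larval zebrafish takes up ions from fresh water, and separate ionocyte classes share the work. Proton-pump ionocytes carry a vacuolar-type H+-ATPase and exchange acid, ammonium and sodium with the water. Sodium-chloride ionocytes carry an apical sodium-chloride cotransporter, and calcium ionocytes carry an apical calcium channel. The classes arise from epidermal precursors under Foxi3 transcription factors, with Notch signalling limiting how many precursors take the ionocyte fate. Several of these genes are also transcribed in the kidney tubule, the gut, blood or the nervous system, and whole-larva RNA does not separate these sources.

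The deposited counts summed to between 75993728 and 87110177 read pairs in mutant libraries, and to between 75122088 and 80871977 in wild-type libraries. A count of 0 would allow up to 3 counts, which is 0.0334 to 0.0386 CPM in mutant libraries and 0.038 to 0.041 CPM in wild-type libraries, and covers counting error only. CPM denotes counts scaled to library size, here with TMM factors. No member came near this floor. The lowest member count in any library was 363 read pairs, for slc9a3.2 in mutant library 1. The transcripts of pdcd7 itself measured 21.8, 19.6 and 20.5 CPM in mutant libraries, against 14.8, 15.0 and 15.3 CPM in wild-type libraries (log2 change 0.46 ± 0.046 SE, edgeR adjusted p = 7.92e-08). The labels do not say what the allele changes in the gene, so this level does not check the genotype labels.

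Of the 10 ionocyte genes, 3 were higher in mutants (trpv6, slc12a10.2 and rhcgb), 3 were lower (slc9a3.2, atp6v1aa and ca15a) and 4 did not pass the test (foxi3a, foxi3b, ca2 and slc4a4b). Calls rest on a two-sided quasi-likelihood F-test in edgeR over all 24248 genes with enough counts, at an adjusted p (Benjamini-Hochberg) of 0.05. In the same comparison 68.9% of all tested genes passed, with 34.7% higher and 34.2% lower, so the members' counts lay close to that background. For 6 of the 10 members the mutant and wild-type values did not overlap, and the same held for 72.1% of all tested genes. The median log2 change of the members was 0.0044, beside 0.0072 over all tested genes. Among the members only slc9a3.2 changed by at least 1.5-fold, downward, whereas 10.7% of all tested genes rose and 11.1% fell by at least that much. The members together summed to 427 to 432 CPM in mutant libraries and to 455 to 467 CPM in wild-type libraries. Without atp6v1aa, the most abundant of them, the direction turned, and the other 9 members summed to 270.4 to 275 CPM in mutant libraries and to 254 to 264 CPM in wild-type libraries. In whole larvae, fewer cells of a type and less RNA per cell cannot be told apart.

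**Figure D1:**
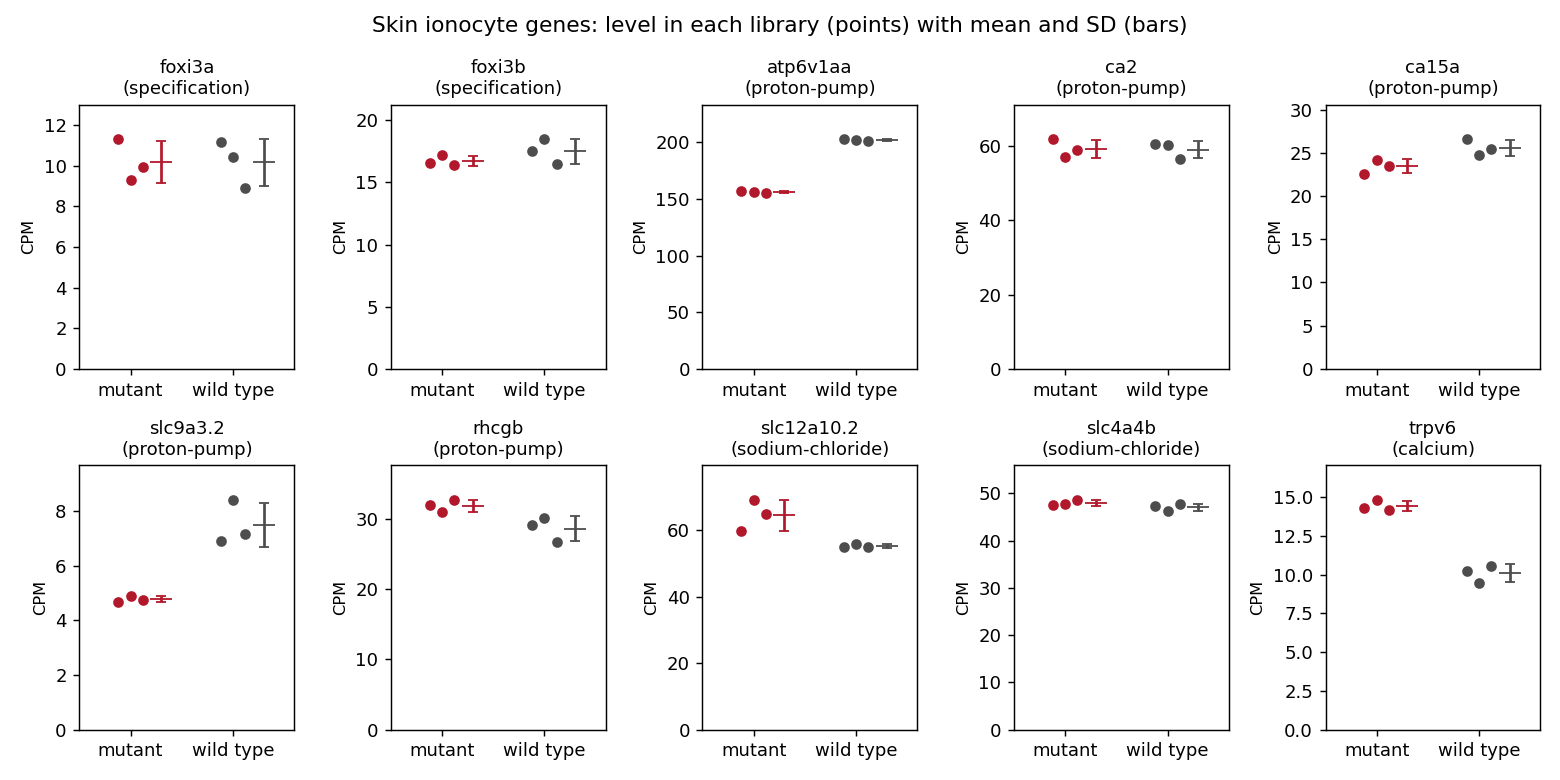
Scaled counts (CPM, with TMM factors) of the 10 ionocyte genes in each of the 3 mutant and 3 wild-type libraries. The mutant points lie wholly above the wild-type points for trpv6, slc12a10.2 and rhcgb, and wholly below them for slc9a3.2, atp6v1aa and ca15a.

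The members that specify ionocytes gave no call. The gene foxi3a (ENSDARG00000055926, chromosome 21, 30351256 to 30352951, forward strand, build GRCz11, 2 merged exon blocks) encodes a forkhead transcription factor that keeps epidermal precursors on the ionocyte path. It measured 11.3, 9.29 and 9.94 CPM in mutant libraries, against 11.1, 10.4 and 8.89 CPM in wild-type libraries. The groups overlapped, and the log2 change was 0.0024 ± 0.092 (SE, 95% interval -0.20 to 0.21, edgeR adjusted p = 0.984). Its relative foxi3b (ENSDARG00000009550, chromosome 14, 34514336 to 34516587, forward strand) encodes another factor of the same kind. It measured 16.6, 17.2 and 16.4 CPM in mutant libraries and 17.5, 18.5 and 16.5 CPM in wild-type libraries. These ranges also overlapped, with a log2 change of -0.065 ± 0.048 (95% interval -0.17 to 0.036, adjusted p = 0.239). Neither interval shows that the levels were equal.

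Members of the proton-pump class moved in both directions. The gene atp6v1aa (ENSDARG00000034534, chromosome 5, 24245682 to 24259992, forward strand, 15 exon blocks) encodes the catalytic A subunit of the vacuolar-type proton pump, and proton-pump ionocytes are often recognised by it. It measured 157, 156 and 155 CPM in mutant libraries, against 203, 202 and 201 CPM in wild-type libraries. Every mutant library lay below every wild-type library, by far more than the spread within either group. Its mean was 156 ± 1.03 CPM in mutants and 202 ± 1.01 CPM in wild type (SD, n = 3 each), 22.7% lower in mutants (log2 change -0.37 ± 0.028, edgeR adjusted p = 1.89e-09). The pump is also present in lysosomes and synaptic vesicles of other cells, so atp6v1aa is not specific to ionocytes.

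The gene slc9a3.2 (ENSDARG00000036722, chromosome 19, 10738150 to 10771558, reverse strand, 16 exon blocks) encodes a sodium/proton exchanger of the Nhe3 type. It measured 4.68, 4.89 and 4.74 CPM in mutant libraries, against 6.90, 8.40 and 7.15 CPM in wild-type libraries. The groups did not overlap, and the wild-type libraries were the more spread, with 4.77 ± 0.112 CPM in mutants and 7.48 ± 0.801 CPM in wild type (SD, n = 3 each). The level was 1.57-fold lower in mutants (log2 change -0.65 ± 0.077, adjusted p = 7.18e-07), and 9.997% of all tested genes had a log2 change at or below it. This was the largest change among the members.

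Both carbonic anhydrases of the class changed little. The gene ca2 (ENSDARG00000014488, chromosome 24, 32650227 to 32665283, reverse strand) encodes a cytosolic carbonic anhydrase that supplies protons and bicarbonate. It measured 61.8, 57.0 and 58.9 CPM in mutant libraries, against 60.4, 60.1 and 56.3 CPM in wild-type libraries. These values overlapped throughout, with a log2 change of 0.0065 ± 0.037 (95% interval -0.072 to 0.085, edgeR adjusted p = 0.888). The gene ca15a (ENSDARG00000015654, chromosome 12, 4320041 to 4331117, reverse strand) encodes a membrane-bound carbonic anhydrase of the apical surface. It measured 22.6, 24.2 and 23.5 CPM in mutant libraries, against 26.6, 24.7 and 25.5 CPM in wild-type libraries. The groups were separate, but by a narrow gap between mutant library 2 and wild-type library 2. The level was 8.43% lower in mutants (log2 change -0.13 ± 0.041, adjusted p = 0.0112). That call was lost without wild-type library 1 (log2 change -0.10, adjusted p = 0.0605), with upper quartile scaling (-0.086, adjusted p = 0.0757) and with scaling to library size only (-0.055, adjusted p = 0.252).

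The ammonia channel gene rhcgb (ENSDARG00000100265, chromosome 25, 8581541 to 8602437, reverse strand) was the single proton-pump member that rose. It measured 32.0, 31.0 and 32.7 CPM in mutant libraries, against 29.1, 30.1 and 26.7 CPM in wild-type libraries. Every mutant library was above every wild-type library, though mutant library 2 and wild-type library 2 lay close together. The level was 11.5% higher in mutants (log2 change 0.16 ± 0.043, edgeR adjusted p = 0.00374).

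In the sodium-chloride class the apical cotransporter gene rose and the basolateral one did not pass the test. The gene slc12a10.2 (ENSDARG00000071173, chromosome 7, 4332430 to 4380448, forward strand, 26 exon blocks) encodes the cotransporter that marks these cells. It measured 59.7, 69.1 and 64.8 CPM in mutant libraries, against 54.9, 55.9 and 54.99 CPM in wild-type libraries. All mutant values were higher, and they were also the more spread, at 64.5 ± 4.69 CPM against 55.3 ± 0.538 CPM in wild type (SD). The level was 16.8% higher in mutants (log2 change 0.22 ± 0.043, edgeR adjusted p = 0.000317). The gene lies 9.352 Mb from the start of pdcd7 on the same chromosome, so a difference between linked haplotypes cannot be told apart from the mutation. The gene slc4a4b (ENSDARG00000044808, chromosome 21, 5993188 to 6104568, forward strand) encodes a basolateral sodium-bicarbonate cotransporter. It measured 47.4, 47.7 and 48.6 CPM in mutant libraries, against 47.3, 46.3 and 47.7 CPM in wild-type libraries. The groups overlapped, with a log2 change of 0.025 ± 0.032 (95% interval -0.041 to 0.092, adjusted p = 0.491). With scaling to library size only, slc4a4b passed the test (log2 change 0.098, adjusted p = 0.0131).

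The calcium class is represented by trpv6 (ENSDARG00000014496, chromosome 16, 12294284 to 12319822, reverse strand, 17 exon blocks), which encodes the epithelial calcium channel of the apical membrane. It measured 14.3, 14.8 and 14.2 CPM in mutant libraries, against 10.25, 9.44 and 10.6 CPM in wild-type libraries. The groups were well apart, with a lowest mutant value above the highest wild-type value by more than the range within either group. The mean was 14.4 ± 0.344 CPM in mutants and 10.09 ± 0.588 CPM in wild type (SD, n = 3 each), 1.43-fold higher in mutants (log2 change 0.52 ± 0.053, edgeR adjusted p = 1.08e-07). Its log2 change stood at the percentile 86.2 among all tested genes, the highest of the members.

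Levels are comparable between genes only per transcript length, here as FPKM (CPM per kilobase of merged exons). In mutants the members ran from 59.8 FPKM for atp6v1aa and 40.7 FPKM for ca2, through 18.9 FPKM for rhcgb, 15.3 FPKM for ca15a, 12.1 FPKM for slc4a4b and 10.13 FPKM for slc12a10.2, to 8.98 FPKM for foxi3b, 6.39 FPKM for foxi3a, 5.64 FPKM for trpv6 and 1.71 FPKM for slc9a3.2. In wild type the same genes averaged 77.4 FPKM for atp6v1aa, 40.5 FPKM for ca2, 16.9 FPKM for rhcgb, 16.7 FPKM for ca15a, 11.9 FPKM for slc4a4b, 8.68 FPKM for slc12a10.2, 9.39 FPKM for foxi3b, 6.38 FPKM for foxi3a, 3.95 FPKM for trpv6 and 2.68 FPKM for slc9a3.2. The order was thus the same in both genotypes except that slc12a10.2 stood above foxi3b in mutants and below it in wild type. In wild type only rhcgb and ca15a overlapped as neighbours in this order, and in mutants no neighbours did. The highest level exceeded the lowest 35.1-fold in mutants and 28.9-fold in wild type. The coefficient of variation over 3 libraries ran from 0.50% for atp6v1aa in wild type to 11.3% for foxi3a in wild type.

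To set the classes against each other, the ratio of one apical transporter per class was taken within each library: trpv6 for calcium, slc12a10.2 for sodium-chloride and rhcgb for proton-pump ionocytes. The log2 ratio of trpv6 over slc12a10.2 was -2.06, -2.22 and -2.19 in mutant libraries, against -2.42, -2.57 and -2.38 in wild-type libraries. That of trpv6 over rhcgb was -1.16, -1.07 and -1.21 in mutant libraries and -1.505, -1.67 and -1.33 in wild-type libraries. For both ratios all mutant libraries lay above all wild-type libraries, by 0.30 and 0.36 on the log2 scale between the means. Each gave p = 0.1 in an exact permutation test (two-sided, adjusted p = 0.15 over the 3 ratios), which is the smallest p that 3 libraries against 3 can reach. The log2 ratio of slc12a10.2 over rhcgb was 0.90, 1.16 and 0.98 in mutant libraries and 0.92, 0.89 and 1.04 in wild-type libraries. These overlapped, with a difference of 0.063 (exact permutation p = 0.6, adjusted p = 0.6). The sign of this difference turned without mutant library 2 (-0.0078). Of the proton-pump members rhcgb is the only one that rose, and the size of the contrast depends on it. With atp6v1aa, ca2, ca15a and slc9a3.2 in its place, tried after the data were seen, the differences for trpv6 were 0.89, 0.51, 0.64 and 1.16, and those for slc12a10.2 were 0.59, 0.21, 0.35 and 0.87. All of these were without overlap except slc12a10.2 over ca2 (exact permutation p = 0.2, against p = 0.1 for each of the others, adjusted p = 0.22 and 0.122 over 11 ratios). However, trpv6 and slc12a10.2 were each higher without overlap, and atp6v1aa, ca15a and slc9a3.2 each lower without overlap. Ratios over these lower genes therefore had to separate the genotypes, and their separation adds nothing on how the classes differ. The ranges of the single genes also fixed the separation of trpv6 over slc12a10.2, over rhcgb and over ca2, however the libraries were matched. These ratios thus follow from the changes of the single genes and add nothing on how the classes differ. Only slc12a10.2 over ca2 and slc12a10.2 over rhcgb were not fixed in this way, and in both the genotypes overlapped.

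**Figure D2:**
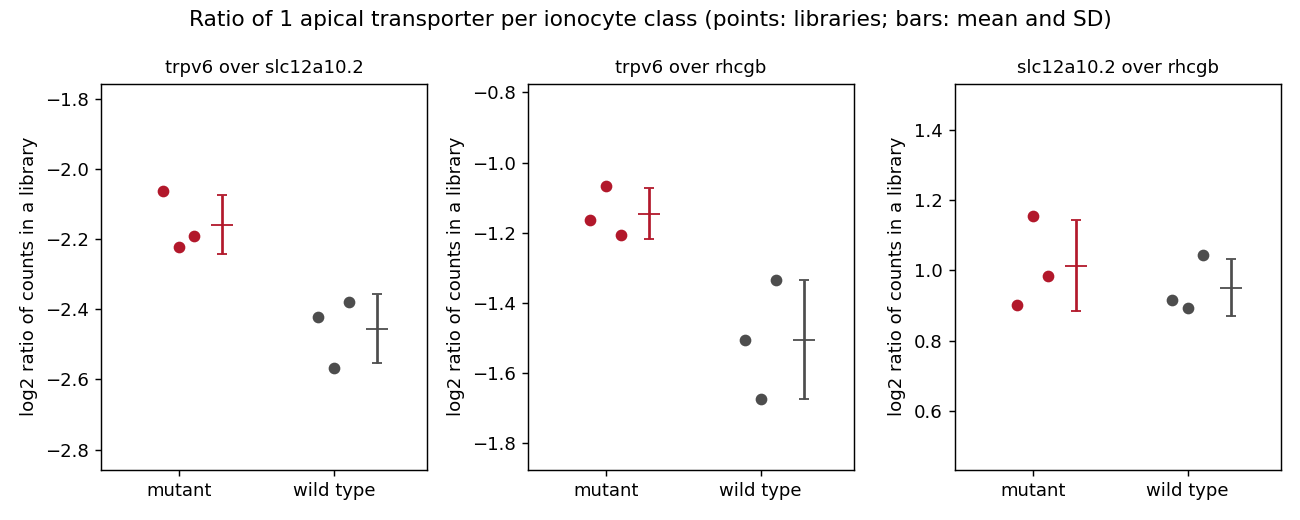
Log2 ratio of the CPM of the apical transporter genes of the ionocyte classes within each library, with mutant libraries left of wild-type libraries. Mutant libraries lie higher for both ratios with trpv6, by 0.30 and 0.36 between the means, and the genotypes overlap for slc12a10.2 over rhcgb. The ranges of the single genes fixed the separation of both trpv6 ratios, which adds nothing on how the classes differ.

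Further genes known from each class were read from the same test. In the proton-pump class gcm2, the transcription factor that directs cells to this class, measured 11.2, 10.7 and 11.1 CPM in mutant libraries and 9.58, 9.99 and 9.48 CPM in wild-type libraries. It was higher without overlap (log2 change 0.18 ± 0.052, edgeR adjusted p = 0.00539). The basolateral anion exchanger gene slc4a1b was lower, with 11.8, 11.8 and 11.7 CPM in mutant libraries against 16.0, 14.9 and 14.9 CPM in wild-type libraries (log2 change -0.37 ± 0.048, adjusted p = 1.71e-06). The nuclear receptor gene esrra was lower by a smaller step (log2 change -0.17 ± 0.039, adjusted p = 0.000708). The sodium pump copy of this class, atp1a1a.5, did not pass (log2 change -0.037 ± 0.065, adjusted p = 0.623). Genes of this class thus stood on both sides, as its 5 members did (1 higher, 3 lower, 1 not called). Over all tested genes 34.7% were higher and 34.2% lower, so standing on both sides is not particular to this class.

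In the sodium-chloride class the neighbouring copy slc12a10.3 was higher, like slc12a10.2, and the neighbouring copy slc12a10.1 was lower. The copy slc12a10.1 measured 1.34, 1.59 and 1.41 CPM in mutant libraries, against 6.06, 6.73 and 6.24 CPM in wild-type libraries, which was 4.38-fold lower in mutants (log2 change -2.13 ± 0.090, edgeR adjusted p = 7.05e-13). The copy slc12a10.3 measured 5.81, 5.03 and 5.79 CPM in mutant libraries, against 3.77, 4.94 and 3.72 CPM in wild-type libraries (log2 change 0.42 ± 0.10, adjusted p = 0.00248). Both were separated between genotypes, in opposite directions. These copies stand in tandem 9.259 and 9.299 Mb from pdcd7, and reads that match more than 1 copy were not counted, so the count of each copy alone is uncertain. The 3 copies together gave 66.9, 75.7 and 72.0 CPM in mutant libraries, against 64.8, 67.6 and 64.9 CPM in wild-type libraries. Mutant library 1 fell within the wild-type range for this sum, and the ratio of the means was 1.09. The basolateral chloride channel gene clcn2c did not pass (log2 change 0.034 ± 0.045, adjusted p = 0.519), nor did bsnd, whose human relative encodes a chloride channel subunit, at 0.139 to 0.520 CPM over all libraries. The sodium pump copy atp1a1a.2 was lower (log2 change -0.36 ± 0.039, adjusted p = 4.23e-07), but its annotated span overlaps that of atp1a1a.1 on the same strand, and its count is uncertain for that reason.

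In the calcium class the companions of trpv6 were split. The basolateral sodium/calcium exchanger gene slc8a1b was higher, with 58.0, 55.1 and 56.4 CPM in mutant libraries against 50.2, 52.3 and 51.8 CPM in wild-type libraries (log2 change 0.13 ± 0.033, edgeR adjusted p = 0.00157). The gene igfbp5a, whose product binds insulin-like growth factors and acts in these ionocytes, measured 11.4, 11.5 and 12.001 CPM in mutant libraries and 8.49, 9.13 and 10.32 CPM in wild-type libraries. It was higher without overlap (log2 change 0.32 ± 0.064, adjusted p = 0.000277). The sodium pump copy atp1a1a.1 was higher as well (log2 change 0.16 ± 0.030, adjusted p = 0.000136), with the count uncertain through the same overlap with atp1a1a.2. The plasma membrane calcium pump gene atp2b2 was lower, with 103, 101 and 102 CPM in mutant libraries against 143, 154 and 149 CPM in wild-type libraries (log2 change -0.54 ± 0.033, adjusted p = 8.07e-11). This pump is also known from sensory hair cells and neurons. The companions that rose are not shown to be specific to ionocytes either. In wild type atp1a1a.1 averaged 178.4 FPKM (CPM per kilobase of merged exons), slc8a1b 11.81 FPKM and igfbp5a 4.495 FPKM. In the same libraries atp2b2 averaged 29.67 FPKM and trpv6 3.95 FPKM. Whole-larva RNA does not show in which cells the level of any of these genes changed.

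**Figure D3:**
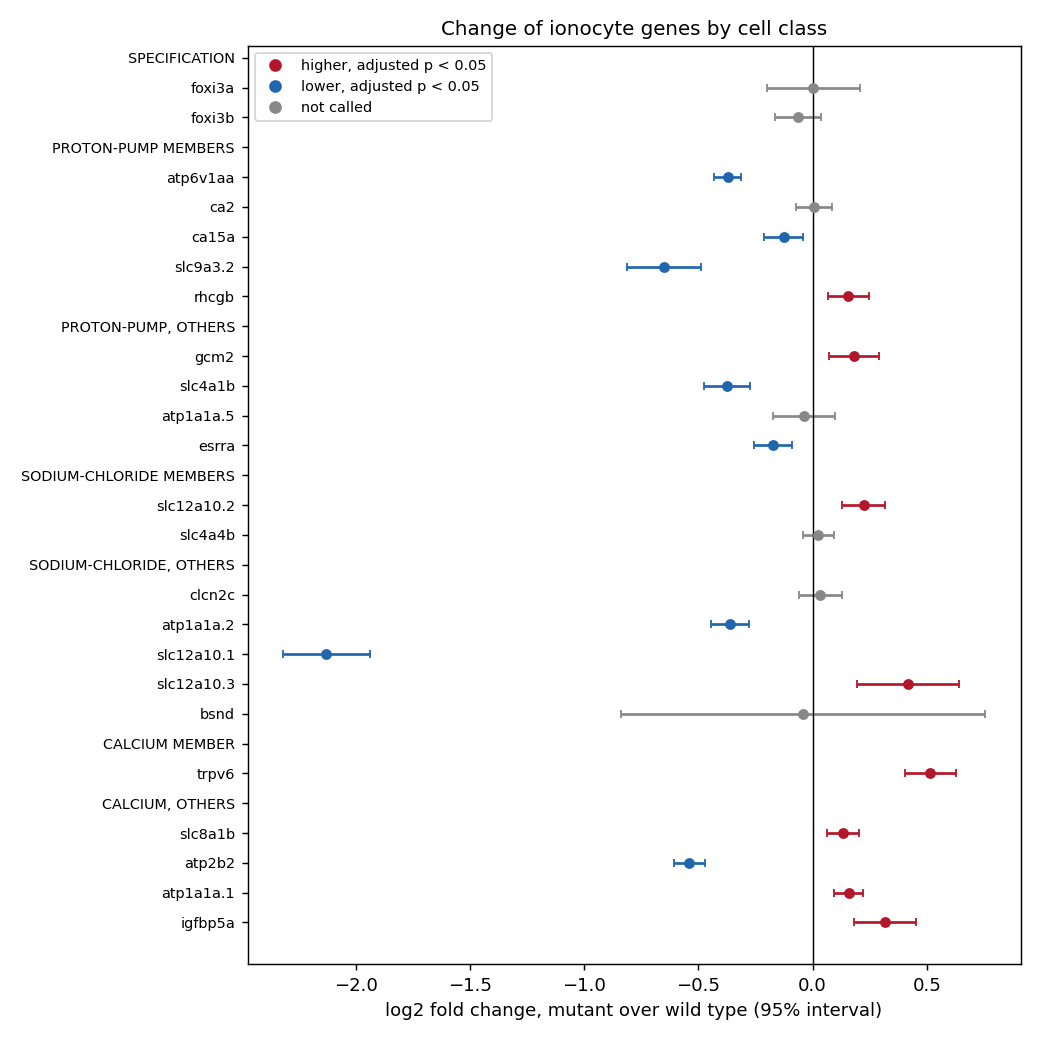
Log2 fold change of the ionocyte genes and their companions by class, mutant over wild type, with 95% intervals from edgeR and colours for the call. Calcium, proton-pump and sodium-chloride genes each lie on both sides of 0. In the calcium class atp2b2 lies left of 0, and slc12a10.1 lies farthest left at -2.13.

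Close relatives of the members moved with the member in some cases and against it in others. Over all tested genes 34.7% were higher and 34.2% lower. For the Nhe3 pair both copies fell: slc9a3.1 measured 2.74, 3.05 and 3.33 CPM in mutant libraries and 5.62, 5.40 and 5.90 CPM in wild-type libraries (log2 change -0.89 ± 0.083, edgeR adjusted p = 3.26e-08). The sum of both copies was 7.42, 7.94 and 8.06 CPM in mutant libraries, against 12.5, 13.8 and 13.0 CPM in wild-type libraries, a ratio of 0.595. Both copies lie close together on chromosome 19, and reads that match more than 1 copy were not counted, so the count of each alone is uncertain. Their scaffold gene slc9a3r1a, which encodes a PDZ protein that holds such exchangers at the apical membrane, was lower too (log2 change -0.66 ± 0.034, adjusted p = 9.22e-12). The bicarbonate cotransporter gene slc4a4a was lower (138, 138 and 137 CPM in mutant libraries, 178, 177 and 179 CPM in wild-type libraries, log2 change -0.37 ± 0.028, adjusted p = 2.20e-09), while slc4a4b did not pass. The ammonia channel genes rhcga and rhcgl1 were lower (log2 change -0.20 ± 0.036 and -0.55 ± 0.064, adjusted p = 8.25e-05 and 0.000127), whereas rhcgb and rhbg were higher (0.16 ± 0.043 and 0.16 ± 0.030, adjusted p = 0.00374 and 0.000169). Their relative rhag was higher as well (log2 change 0.21 ± 0.032, edgeR adjusted p = 1.26e-05). The gene rhcga lies 0.6073 Mb from pdcd7. Of the ca15 copies, ca15b was lower at under 1.1 CPM in every library (log2 change -0.86 ± 0.20, adjusted p = 0.00122) and ca15c did not pass (0.19 ± 0.17, adjusted p = 0.317). The ca15 copies also lie close together, on chromosome 12, with the same limit on the count of each. For the proton pump A subunit, atp6v1ab fell with atp6v1aa, by the smaller log2 change of -0.20 ± 0.031 (adjusted p = 1.55e-05).

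**Figure D4:**
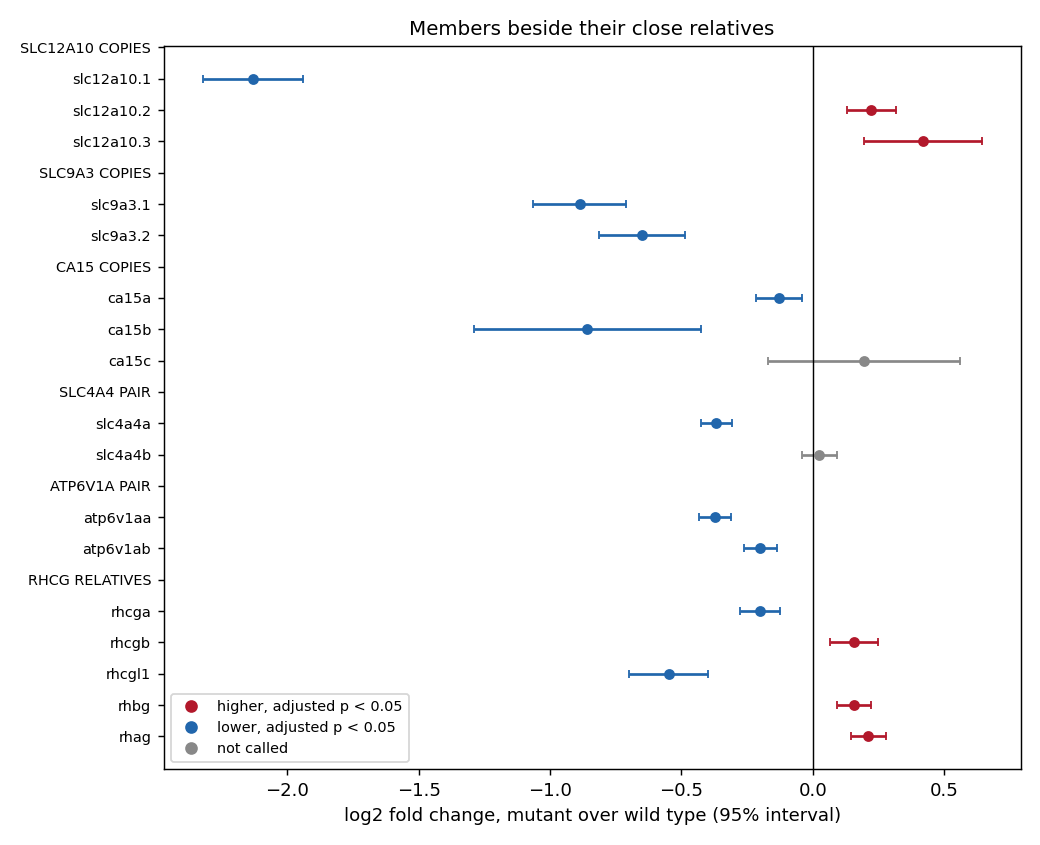
Log2 fold change of slc12a10.2, slc9a3.2, ca15a, slc4a4b, atp6v1aa and rhcgb beside their close relatives, mutant over wild type. Bars are 95% intervals from edgeR, and colours give the call. The slc12a10 copies spread from -2.13 to 0.42, and both slc9a3 copies lie left of 0.

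The other subunits of the proton pump showed where atp6v1aa stands in its complex. Of 23 further measured subunit and accessory genes, 16 were lower, 3 higher and 4 not called, with a median log2 change of -0.24, and the lower count was 14 to 17 under the other scalings. Over all tested genes 34.2% were lower and 34.7% higher. The lower ones included the head subunit genes atp6v1b2 (91.7, 96.6 and 94.3 CPM in mutant libraries, 128, 132 and 134 CPM in wild-type libraries, log2 change -0.48 ± 0.031, edgeR adjusted p = 2.57e-10) and atp6v1f (-0.47 ± 0.039, adjusted p = 5.81e-09). The membrane-part gene atp6v0d1 was also lower (-0.42 ± 0.031, adjusted p = 1.14e-09). Against these, atp6v0a2b measured 19.5, 20.9 and 19.6 CPM in mutant libraries and 11.5, 12.1 and 12.4 CPM in wild-type libraries (log2 change 0.74 ± 0.048, adjusted p = 2.38e-10). In the rest of the complex, as for atp6v1aa, most log2 changes were small: 1 subunit gene fell and 1 rose by at least 1.5-fold. Over all tested genes 11.1% fell and 10.7% rose by at least that much. The subunit gene that fell this far was at a low level, 0.258 to 0.886 CPM over all libraries.

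**Figure D5:**
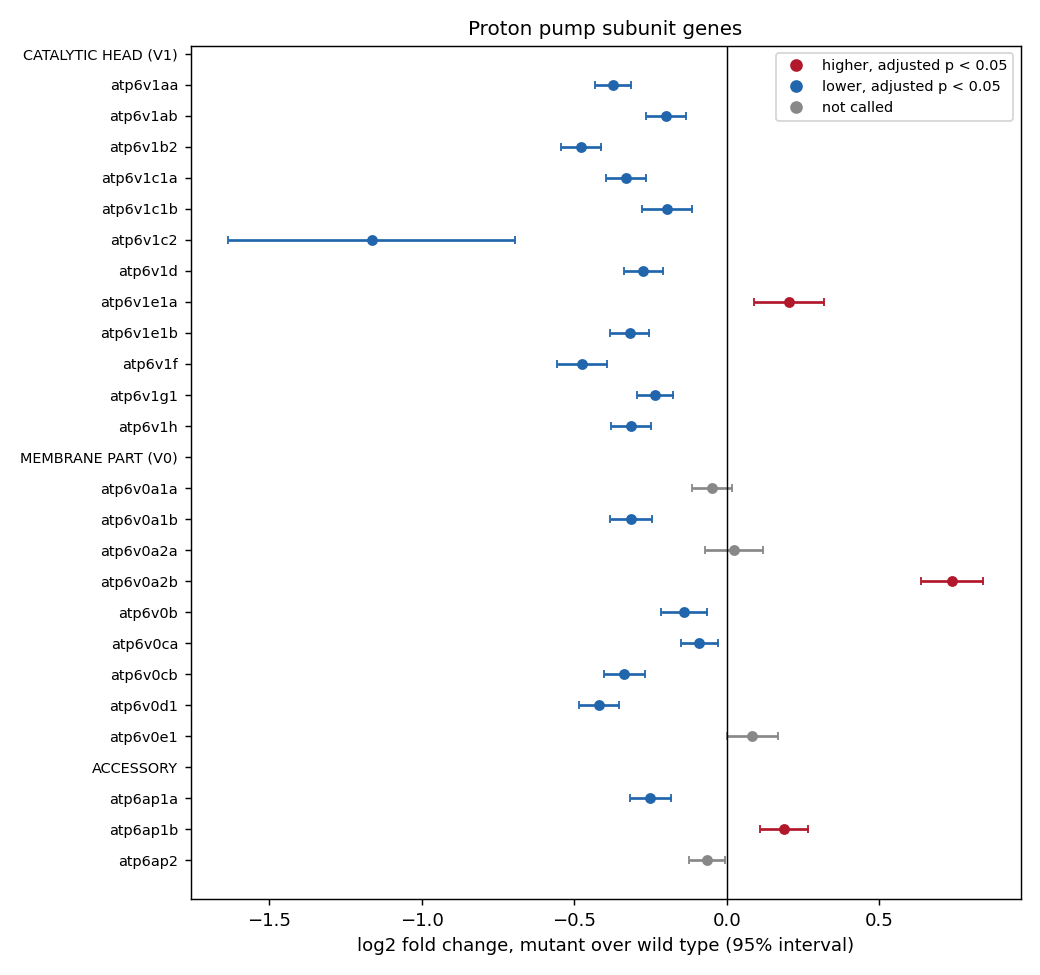
Log2 fold change of the proton pump's subunit and accessory genes, mutant over wild type, with 95% intervals from edgeR and colours for the call. The member atp6v1aa at -0.37 lies among 16 other genes that were lower, while atp6v0a2b at 0.74 stands apart on the higher side.

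Of the 16 sodium pump genes, 11 were lower, 4 higher and 1 not called, with a median log2 change of -0.14, beside 34.2% lower and 34.7% higher over all tested genes, and the lower count was 8 to 11 under the other scalings. The largest fall was in atp1a1a.4 (238, 232 and 230 CPM in mutant libraries, 657, 624 and 575 CPM in wild-type libraries, log2 change -1.41 ± 0.042, edgeR adjusted p = 1.88e-13). The beta subunit genes atp1b2b (-0.51 ± 0.038, adjusted p = 1.43e-09) and atp1b1b (-0.40 ± 0.036, adjusted p = 1.58e-08) were lower, and the alpha subunit gene atp1a2a was higher (0.28 ± 0.037, adjusted p = 3.54e-06). Of 14 further carbonic anhydrase and related genes, 8 were lower, 3 higher and 3 not called, with a median log2 change of -0.30 and the same shares over all tested genes (34.2% lower, 34.7% higher). Their summed level nevertheless was higher in mutants, at 205 to 208 CPM in mutant libraries and 198 to 201 CPM in wild-type libraries. Those lower included ca14 (-0.68 ± 0.10, adjusted p = 9.41e-06), ca10b (-0.54 ± 0.065, adjusted p = 9.44e-07) and ca10a (-0.34 ± 0.041, adjusted p = 6.48e-07). The gene of the secreted enzyme, ca6, was higher (0.44 ± 0.031, adjusted p = 7.15e-10). Neither member anhydrase moved as far as these.

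Related transporters of the slc4, slc9, slc12, Rh and trpv families, with the scaffold gene slc9a3r1a, numbered 23. Of them 12 were lower, 8 higher and 3 not called (median log2 change -0.20), beside 34.2% lower and 34.7% higher over all tested genes. The genes slc4a1a and rhag are also in the erythrocyte list below, and slc12a1 and slc12a3 in the pronephros list. The bicarbonate transporter genes slc4a5a (-1.02 ± 0.057, edgeR adjusted p = 2.88e-11) and slc4a5b (-0.97 ± 0.043, adjusted p = 1.49e-12) fell most. The anion exchanger gene slc4a2a was higher (0.46 ± 0.036, adjusted p = 3.16e-09). The kidney-type cotransporter genes slc12a1 and slc12a3 did not pass, at 0.372 to 1.22 CPM and 0.623 to 0.914 CPM over all libraries, far below slc12a10.2. Chloride/bicarbonate exchangers of the slc26 family were lower in 3 of 4 genes. The gene slc26a3.2 measured 28.8, 31.8 and 28.6 CPM in mutant libraries, against 76.3, 77.0 and 74.9 CPM in wild-type libraries (2.56-fold lower, log2 change -1.36 ± 0.039, adjusted p = 5.30e-15). Its copy slc26a3.1 had 2, 7 and 4 counts in mutant libraries and 42, 51 and 28 counts in wild-type libraries (adjusted p = 8.12e-07). The mutant counts of slc26a3.1 lay near the floor of 3 counts. Both copies lie close together on chromosome 4, and reads that match more than 1 copy were not counted, so the count of each alone is uncertain. The gene slc26a6 was lower (-0.80 ± 0.064, adjusted p = 3.57e-09) and slc26a4 did not pass (0.10 ± 0.17, adjusted p = 0.594).

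Upstream of the classes, 8 of 11 genes of ionocyte and epidermal specification other than the foxi3 pair rose, 1 fell and 2 did not pass, with a median log2 change of 0.29. Over all tested genes 34.7% rose and 34.2% fell. The Notch ligand gene jag1b measured 40.2, 40.1 and 41.0 CPM in mutant libraries, against 25.4, 25.96 and 26.7 CPM in wild-type libraries (log2 change 0.64 ± 0.035, edgeR adjusted p = 2.17e-11). The receptor gene notch1a (0.59 ± 0.035, adjusted p = 6.61e-11) and the epidermal transcription factor gene grhl1 (0.52 ± 0.034, adjusted p = 2.43e-10) were higher. The gene klf4, another epidermal transcription factor, was lower (-0.45 ± 0.094, adjusted p = 0.000535). The list also holds gcm2, given above. Whole-larva RNA does not show in which cells the levels of these genes changed.

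Of 21 tested genes of hormones, receptors and enzymes that regulate ionocytes 10 fell, 3 rose and 8 did not pass, with a median log2 change of -0.20, and the lower count was 7 to 10 under the other scalings. Over all tested genes 34.2% fell, 34.7% rose and 68.9% passed in either direction. The prolactin receptor gene prlra measured 28.5, 31.5 and 29.9 CPM in mutant libraries, against 61.6, 65.4 and 61.2 CPM in wild-type libraries (log2 change -1.07 ± 0.040, edgeR adjusted p = 1.63e-13). The vitamin D receptor gene vdrb (-0.61 ± 0.045, adjusted p = 4.34e-09) and the mineralocorticoid receptor gene nr3c2 (-0.54 ± 0.047, adjusted p = 1.23e-08) were lower. The stanniocalcin gene stc2a was higher (0.25 ± 0.037, adjusted p = 9.18e-06).

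Markers of other tissues moved between the same libraries, and their part in the results above was not tested. Over all tested genes 34.7% were higher and 34.2% lower, beside which the counts of each list stand. Of 14 keratinocyte markers 11 were higher and none lower (col17a1a 0.51, cldne 0.44 and krtt1c19e 0.67 on the log2 scale), and their summed level was 22029 to 22549 CPM in mutant libraries and 17674 to 18504 CPM in wild-type libraries. In the same libraries 3 of the 10 ionocyte members were higher, 3 lower and 4 not called. Of the 11 specification genes 8 were higher, 1 lower and 2 not called. Of 16 pronephros markers 3 were higher, 5 lower and 8 not called, and their sum was 466 to 477 CPM in mutant libraries and 502 to 521 CPM in wild-type libraries. The balance of calls turned to 5 higher and 3 lower with upper quartile scaling and to 6 higher and 3 lower with library size only, and the median log2 change of 0.0042 turned to -0.00086 with RLE scaling. Called among them were cdh17 (-0.35), slc20a1a (-0.42) and slc13a1 (0.59). Of 9 measured erythrocyte markers 2 were higher, 3 lower and 4 not called, and their sum was 781 to 843 CPM in mutant libraries and 742 to 775 CPM in wild-type libraries. Among these, epb41b (-0.71) and slc4a1a (-0.67) were lower and rhag was higher (0.21). The third lower gene, alas2 (-0.10, edgeR adjusted p = 0.0441), lost its call in 9 of 16 alternatives. Of 7 measured enterocyte markers 6 were lower and 1 higher (slc15a1b -2.32, slc5a1 -1.42, vil1 -1.03 and alpi.1 0.85), with a sum of 486 to 505 CPM in mutant libraries and 1278 to 1364 CPM in wild-type libraries. The enterocyte list was added after the data were seen. Relatives of slc9a3.2, slc9a3.1, slc9a3r1a and slc26a3.2 are known from the intestinal brush border in mammals. Whether the lower levels of these 4 genes have any link to the enterocyte markers was not tested. No gene of these lists was at 0 in all libraries.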

How the data were processed

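Polyadenylated RNA of whole larvae was measured in 3 mutant and 3 wild-type libraries. What the authors deposited are unnormalized counts, in read pairs for each gene. Per the file headers they were made with featureCounts 1.6.3, strand-specific (setting 2), over Ensembl GRCz11 exons of release 115, without reads that align to several places. Trimmomatic 0.38, STAR 2.7.11 and Subread 1.6.3 are named in the submitters' processing notes. Symbols matched 29201 of 32520 IDs (89.8%), and of 200 entries of the gene lists 18 were not matched or were ambiguous, among them pappaa, vdra and kcnj1a.1 to kcnj1a.6. RefSeq (GRCz12tu) was used for names and, where a symbol lacked its paralogue letter, for the chromosome that chose the ID; none of its coordinates were used.

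The test was edgeR 4.0.16 (R 4.3.3) with robust quasi-likelihood fits, filterByExpr, TMM factors and genotype as the only term. It was also run on simulated counts in which few genes changed. That run does not check the scaling where, as in these data, 68.9% of the tested genes passed. Log2 changes are mutant minus wild type, and each SE is the log2 change divided by the square root of the F statistic. Alternatives were upper quartile, library size and RLE scaling, 2 other filters, DESeq2 1.42.0, limma-voom (limma 3.58.1), a replicate block, a stricter threshold and each library left out. Added after the data were seen were a 1.5-fold limit, the other proton-pump members in the class ratios, a fit without robust moderation and the enterocyte list. Members and lists were chosen with earlier results of these data known. The text names the members, pdcd7, every measured class companion and slc26 gene and, of each other list, the 3 called genes of lowest adjusted p in its prevailing direction and 1 in the other; further paralogues of members were named after their values were seen. A gene that this rule would name is not reported here. Libraries of 1 group differed by more than sampling noise. Figures were drawn with matplotlib 3.10.9.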

Additional observations from a re-analysis of the deposited data

How the results depend on the processing

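Over the alternatives, trpv6, slc12a10.2 and rhcgb stayed higher and slc9a3.2 and atp6v1aa stayed lower past the threshold in all 16, with log2 changes of 0.47 to 0.59, 0.17 to 0.30, 0.11 to 0.23, -0.71 to -0.56 and -0.38 to -0.30. The call of ca15a was lost in 4, including an adjusted p below 0.01 as threshold. None of the 16 changed how reads shared between neighbouring copies were counted. For slc12a10.2, slc9a3.2 and ca15a they therefore do not bear on the uncertainty of the single copies. With a limit of 1.5-fold, 2588 genes were higher and 2700 lower, and 0 members were higher and 1 lower. Upper quartile scaling gave 9321 higher and 7429 lower, and scaling to library size only 10006 higher and 6827 lower, against 8402 and 8294 with TMM. DESeq2 gave 7504 higher and 7820 lower. Members near 0 changed sign without passing: foxi3a with RLE scaling (-0.0026), no filter (-0.0036), DESeq2 (-0.0066), without mutant replicate 1 (-0.081) or wild-type replicate 3 (-0.088); ca2 with DESeq2 (-0.0026) and without mutant replicate 1 (-0.028) or wild-type replicate 3 (-0.027); and foxi3b with library size only (0.0076). So did atp1a1a.5 with upper quartile scaling (0.0041), with library size only (0.035) and without mutant replicate 3 (0.010), clcn2c without mutant replicate 2 (-0.0075), slc26a4 without wild-type replicate 3 (-0.030), and bsnd with library size only (0.031), limma-voom (0.12), the replicate block (0.0019) and without mutant replicate 3 (0.094) or wild-type replicate 1 (0.45). With library size only, clcn2c passed (0.11, edgeR adjusted p = 0.0431). The erythrocyte gene alas2 lost its call in 9 alternatives (log2 change -0.15 to -0.032). Their causes were not tested. Leaving out each library in turn, log2 changes reached at their other end 0.070 for foxi3a, 0.032 for ca2, -0.10 for atp1a1a.5, 0.061 for clcn2c, -0.42 for bsnd and 0.22 for slc26a4. In the same way trpv6 over slc12a10.2 ran from 0.24 to 0.33, trpv6 over rhcgb from 0.27 to 0.44 and slc12a10.2 over rhcgb from -0.0078 to 0.12. Replicate numbers did not pair the samples (correlations 0.021, -0.041 and -0.0023); with the replicate block 8292 genes were higher and 8168 lower, and 3 members were higher and 3 lower.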

Other observations

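The genes given here are outside those named by rule and were chosen after their values were seen. Of them cyp24a1, stc1l and ren are in the list of hormones, receptors and enzymes, and foxi1 is in the specification list. In the former list 8 of 21 tested genes did not pass, among them stc1l, casr, stc1 and cyp27b1, while 68.9% of all tested genes passed. The gene cyp24a1, which encodes the enzyme that inactivates vitamin D, measured 19.8, 27.6 and 23.9 CPM in mutant libraries, against 73.4, 50.2 and 64.1 CPM in wild-type libraries. It was 2.63-fold lower in mutants without overlap (log2 change -1.39 ± 0.21 SE, edgeR adjusted p = 0.0041). The stanniocalcin copy stc1l, of a family that restrains calcium uptake in fish, measured 3.07, 1.95 and 2.16 CPM in mutant libraries, against 4.38, 2.60 and 3.82 CPM in wild-type libraries. These ranges overlapped and the gene did not pass (log2 change -0.59 ± 0.27, adjusted p = 0.104). The forkhead gene foxi1, a relative of the foxi3 pair, measured 0.966, 1.01 and 1.07 CPM in mutant libraries, against 0.520, 0.410 and 0.671 CPM in wild-type libraries (log2 change 0.93 ± 0.19, adjusted p = 0.000288). The renin gene ren was higher at 1.09, 1.46 and 1.58 CPM in mutant libraries, against 1.04, 0.769 and 0.797 CPM in wild-type libraries (log2 change 0.68 ± 0.17, adjusted p = 0.00175).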
